A study of Mus musculus with 6 samples.

Results

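Stathmins and neurofilaments are families of cytoskeletal proteins best known from neurons, and 8 of their genes were followed here: the stathmins Stmn1, Stmn2, Stmn3 and Stmn4, and the neurofilament genes Nefl, Nefm, Nefh and Ina. They were taken by exact gene symbol from the annotation of the array's probe sets, out of 22180 genes with a probe set of their own, and were measured by 9 probe sets because Stmn4 had a pair. The families were selected on measured values of these same arrays: Stmn2 and Nefl were bright in ES cells and low in the sorted cells. The differences of the 8 genes between the groups are therefore given as a description, with no test.

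Stathmins bind tubulin dimers and promote the shortening of microtubules. Stmn1 is found in most dividing cells, where phosphorylation during mitosis switches it off, whereas Stmn2, Stmn3 and Stmn4 carry a membrane anchor and are largely neuronal. Neurofilaments are the intermediate filaments of axons, built from a light, a medium and a heavy chain (Nefl, Nefm, Nefh) together with alpha-internexin (Ina) or peripherin, and they set axon calibre. Stmn2 and the neurofilaments are commonly used as markers of neurons.

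The sorted cells were mouse Pax7-GFP cells, derived from embryonic stem (ES) cells by myogenic differentiation for 3 weeks and sorted by flow cytometry for a green fluorescent reporter of Pax7, a transcription factor of muscle progenitors. They were set against undifferentiated, pluripotent mouse ES cells. Each group held 3 samples, called biological replicates in their titles, with 1 single-colour array each. The sort gate was set on undifferentiated cultures of the reporter line. Strain, sex and the line's allele are not given in the labels, nor whether the ES cells were sorted. Values are RMA signals on the log2 scale. The median of all deposited values, 5.64, serves below as a mark of that scale, and array medians lay between 5.61 and 5.69. No detection calls came with the values, so a gene near the median cannot be called absent. The cells matched their labels: 9 of 10 muscle markers rose in Pax7-GFP cells and 9 of 10 ES markers fell (limma, adjusted p under 0.05 and at least 2-fold, a call that 7.34% of all genes passed as higher and 7.15% as lower). The exceptions, named after their values were seen, were Pax3 at 0.89 and Dppa5a at -0.18 (limma adjusted p = 0.000210 and 0.120). Pax7, the gene of the sort, averaged 10.90 ± 0.25 in Pax7-GFP cells and 5.70 ± 0.073 in ES cells (SD, n = 3 each). Pax7 is counted among the 9 muscle markers that rose, but its rise follows from the sort and is no separate support for the match.

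Among the stathmin and neurofilament genes, promoter sequence from RefSeq (build GRCm38.p6) was at hand for Ina and Stmn3 only, both lower in Pax7-GFP cells. The 250 bases before each start are shown. They differ in base composition, with 70.8% G and C in Ina and 48.8% in Stmn3. The capitals mark the GC box GGGCGG or its reverse complement CCGCCC, a motif read by Sp-family factors. Ina lies on chromosome 19, plus strand, with the window chr19:47014431-47014680, and Stmn3 on chromosome 2, minus strand, with the window chr2:181314501-181314750.
Ina: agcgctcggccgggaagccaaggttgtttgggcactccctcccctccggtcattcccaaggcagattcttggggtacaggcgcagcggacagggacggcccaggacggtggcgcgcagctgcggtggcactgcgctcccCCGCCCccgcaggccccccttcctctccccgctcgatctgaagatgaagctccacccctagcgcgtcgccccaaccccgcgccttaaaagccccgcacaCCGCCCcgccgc
Stmn3: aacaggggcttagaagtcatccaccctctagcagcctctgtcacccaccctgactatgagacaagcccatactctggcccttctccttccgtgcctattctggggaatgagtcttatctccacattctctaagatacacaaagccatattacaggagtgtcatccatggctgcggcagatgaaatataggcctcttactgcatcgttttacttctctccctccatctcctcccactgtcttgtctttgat
The Ina window held 25 CpG dinucleotides and 2 GC boxes, while the Stmn3 window held 3 CpG dinucleotides and 0 GC boxes. Over all 32851 windows of this length in the table, the median was 6 CpG dinucleotides and 32.7% held a GC box on either strand. The TATA box TATAAA, present in 12.4% of the windows on either strand, was found in neither. The element bound by the neuronal repressor Rest was searched as its left and right parts on either strand, CAGCACC, present in 5.73% of the windows, and GGACAG, present in 18.7%. Ina held GGACAG once, Stmn3 held neither part, and these matches describe the letters in the window only.

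Among the stathmins, the neuronal Stmn2 had by far the greatest difference between the groups. Stmn2 (probe set 17396024), also known as SCG10, is a growth cone protein that supports axon growth and repair. Its log2 signals were 5.38, 5.73 and 5.20 in the Pax7-GFP arrays, against 10.97, 10.95 and 10.92 in the ES arrays. All ES arrays stood far above all Pax7-GFP arrays, with a gap of 5.19 between the nearest pair, and the Pax7-GFP signals lay around the median of all values. The group means were 5.44 ± 0.27 in Pax7-GFP cells and 10.94 ± 0.027 in ES cells (SD, n = 3 each). The log2 difference was -5.51 (SE 0.13), or 45.5-fold lower in Pax7-GFP cells, and 22 of the 22180 genes had a more negative difference. In samples of many cells, fewer cells with the transcript and less of it per cell cannot be told apart.

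Stmn3 (probe set 17395844), also called SCLIP, is a neuronal stathmin of growth cones and dendrites. It showed a smaller difference in the same direction, with signals of 6.65, 6.90 and 6.91 in Pax7-GFP arrays, against 8.33, 8.10 and 7.94 in ES arrays. The groups did not overlap, and Pax7-GFP cells kept a signal above the median of all values. The log2 difference was -1.30 (SE 0.12), or 2.47-fold lower. Stmn1 (probe set 17419773), the ubiquitous stathmin or oncoprotein 18, was bright in both groups. It read 8.75, 8.75 and 8.86 in Pax7-GFP arrays, against 9.06, 9.13 and 9.20 in ES arrays. The arrays were again separate, but by a gap of only 0.20, and the log2 difference was -0.34 (SE 0.082), or 1.26-fold lower.

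Stmn4, the brain stathmin RB3, did not share the pattern. Its brighter probe set, 17547833, read 6.65, 6.38 and 6.49 in Pax7-GFP arrays, against 6.57, 6.29 and 6.46 in ES arrays, and the groups overlapped (log2 difference 0.06, SE 0.11). The other probe set, 17301489, read 4.67, 5.09 and 4.83 in Pax7-GFP arrays, against 4.85, 4.60 and 4.82 in ES arrays, also with overlap (log2 difference 0.11). Neither probe set separated the groups, and without Pax7-GFP replicate 1 or ES replicate 2 the difference of the brighter one was -0.01. The description "high in ES cells" thus does not hold for Stmn4, and it does not set Stmn1 apart from the sorted cells by much.

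**Figure D1:**
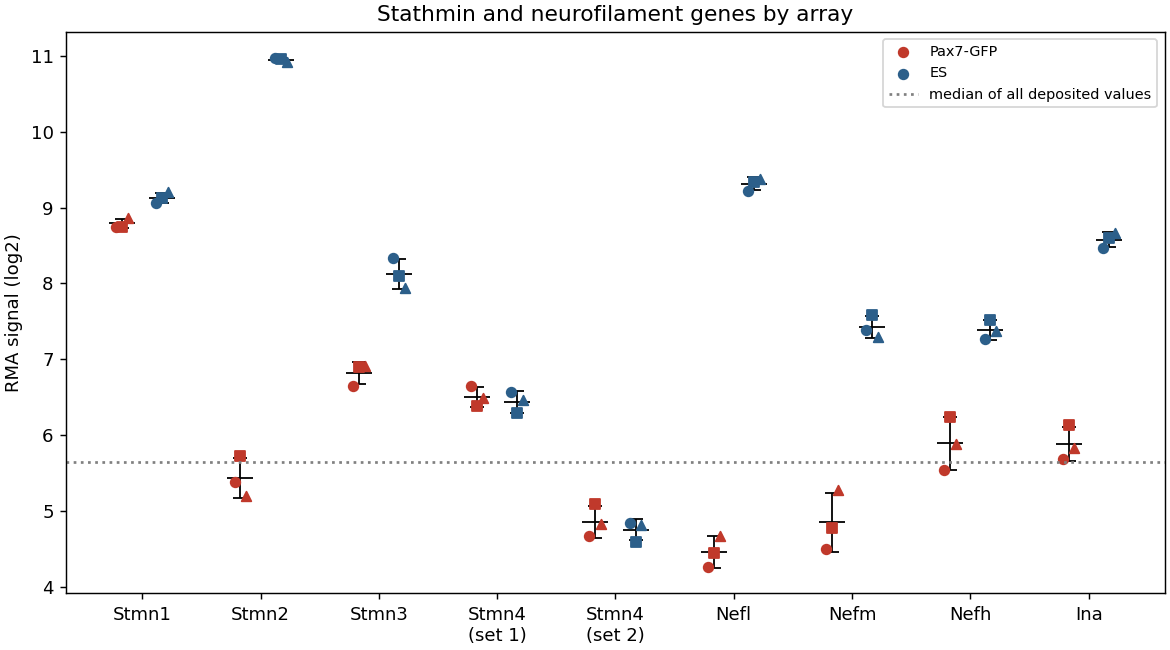
Log2 RMA signal (vertical axis) of the 9 probe sets of the 8 genes, with Pax7-GFP arrays in red on the left and ES arrays in blue on the right of each gene. Circles, squares and triangles are replicates 1, 2 and 3, the horizontal dash and bar are the mean ± SD (n = 3), and the dotted line is the median of all deposited values, 5.64. Stmn2 and Nefl show the widest separation, Stmn1 is bright in both groups, and both Stmn4 probe sets (set 1 is 17547833, set 2 is 17301489) overlap between groups.

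All 4 neurofilament genes were lower in Pax7-GFP cells, and in each the arrays of the groups were separate. Nefl (probe set 17301582), the light chain on which the filament is assembled, read 4.27, 4.45 and 4.68 in Pax7-GFP arrays, against 9.22, 9.34 and 9.38 in ES arrays. Its Pax7-GFP signals lay below the median of all values on every array, while the ES arrays stood at least 4.54 above them. The log2 difference was -4.85 (SE 0.12), or 28.8-fold lower, with 39 genes showing a more negative difference. With signals below the median raised to it, this difference was -3.67, so its size rests in part on signals below that median.

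Ina (probe set 17360109), alpha-internexin, is the neurofilament partner that appears early in developing neurons. It read 5.69, 6.13 and 5.84 in Pax7-GFP arrays, against 8.47, 8.60 and 8.66 in ES arrays (log2 difference -2.69, SE 0.12, or 6.46-fold lower). Nefm (probe set 17308046), the medium chain, read 4.51, 4.78 and 5.28 in Pax7-GFP arrays, against 7.39, 7.59 and 7.30 in ES arrays (log2 difference -2.57, SE 0.18, or 5.95-fold lower). Both genes were well above the median in every ES array, and only Ina stayed above it in every Pax7-GFP array. With the same signal floor the difference of Nefm was -1.79. Nefh (probe set 17260066), the heavy chain, whose long tail is heavily phosphorylated in mature axons, read 5.55, 6.24 and 5.89 in Pax7-GFP arrays, against 7.27, 7.52 and 7.37 in ES arrays. It had the smallest difference among the neurofilament genes, -1.49 (SE 0.17), or 2.82-fold lower.

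Across the 8 genes, 6 were at least 2-fold lower in Pax7-GFP cells and 0 at least 2-fold higher, where 7.15% of all genes were at least 2-fold lower. In 7 of the 8 the arrays of the groups did not overlap and Pax7-GFP cells were lower, an arrangement that 25.6% of all genes showed, and in 0 of the 8 were they separate and higher, as in 26.2% of all genes. Their median log2 difference was -2.03, against 0.02 over all genes. The choice of the families used this contrast, so nothing is read from these counts. The spread among replicates was wider in Pax7-GFP than in ES arrays for Stmn2, Nefl, Nefm, Nefh and Ina, with the widest SD at Nefm, 0.39 in Pax7-GFP cells and 0.15 in ES cells. It was not wider for Stmn1, Stmn3 (SD 0.15 and 0.20) or the brighter Stmn4 probe set. Outside the families both orders occurred, as at Sox2 (SD 0.27 in Pax7-GFP and 0.0415 in ES cells) and Myod1 (0.11 and 0.37). The share of all genes with a wider Pax7-GFP spread was not counted, so the spread is not read as a trait of these families. No single Pax7-GFP array was the highest for all of Stmn2, Nefl, Nefm, Nefh and Ina: replicate 2 was highest for Stmn2, Nefh and Ina, and replicate 3 for Nefl and Nefm.

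The genes whose centred profile over the 6 arrays was nearest to that of Stmn2, by Euclidean distance in log2 units, were Mme at 0.33, Calcoco2 at 0.40 and Pla2g1b at 0.43. Mme encodes the membrane peptidase neprilysin, Calcoco2 the counterpart of a human autophagy receptor and Pla2g1b a secreted phospholipase. Their log2 differences were -5.30, -5.78 and -5.55. The genes nearest to Nefl were Trim6, a ubiquitin ligase, at 0.28, Morc1, a germline chromatin factor, at 0.30, and Gm2381 at 0.37, with log2 differences of -4.79, -4.94 and -4.56. With signals below the median raised to it, Mme stood at -4.70, Calcoco2 at -4.66, Pla2g1b at -4.68, Morc1 at -4.11 and Gm2381 at -2.81. None of these is a stathmin or a neurofilament gene, and the distance between Stmn2 and Nefl themselves was 0.996. Genes nearest to a chosen profile have its difference by construction, so no test is given for them.

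The nearest measured protein-coding genes on either side of these loci were read in the gene order of the GRCm38.p6 table. Nefl and Nefm are next to each other on chromosome 14 with no other measured protein-coding gene between them. On one side, Dock5, an activator of Rac, read 5.76, 6.14 and 6.08 in Pax7-GFP arrays, against 8.04, 8.13 and 8.17 in ES arrays, and fell by 2.12 (SE 0.11, limma adjusted p = 2.09e-06). The next gene, Gnrh1, stood at 0.88 (limma adjusted p = 0.000463, under 2-fold), or at 0.19 with the signal floor. On the other side, the proteases Adam7 and Adamdec1 stood at 0.004 and 0.13 (limma adjusted p = 0.978 and 0.335). The lower signals were thus not shared by every neighbour of the pair.

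Stmn2, on chromosome 3, has as its nearest measured neighbour on one side Hey1, a transcription factor induced by Notch, which moved the opposite way. Hey1 read 11.17, 10.92 and 10.93 in Pax7-GFP arrays, against 6.30, 6.58 and 6.21 in ES arrays, and rose by 4.64 (SE 0.12, limma adjusted p = 5.08e-08). Beyond it Mrps28, a mitochondrial ribosomal protein, stood at -0.50 (limma adjusted p = 0.00689, under 2-fold). On the other side the cytokine gene Il7 stood at -0.18 and Zc2hc1a at 0.16 (limma adjusted p = 0.110 and 0.626). Stmn4, also on chromosome 14, has Dpysl2 as its nearest measured neighbour on one side. Dpysl2 encodes a tubulin-binding protein of growing axons also known as CRMP2. Dpysl2 rose by 2.61 (SE 0.19, limma adjusted p = 1.34e-05) to 9.68 ± 0.36 in Pax7-GFP cells, against 7.07 ± 0.25 in ES cells (SD, n = 3 each). Its other neighbours were not called: Trim35 stood at 0.94, Ptk2b at -0.73 and Pnma2 at -0.24 (limma adjusted p = 0.00126, 0.000831 and 0.171). Without Pax7-GFP replicate 2, Trim35 stood at 1.11 and was called.

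**Figure D2:**
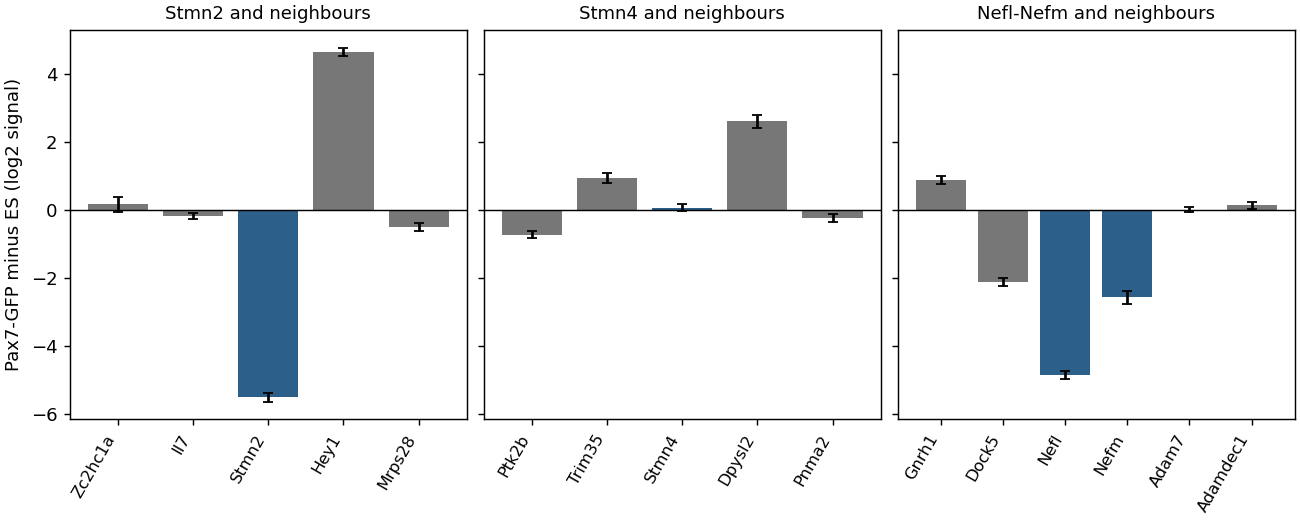
Log2 difference in signal, Pax7-GFP minus ES (vertical axis), of Stmn2, Stmn4 and the Nefl-Nefm pair (blue) and of the 2 measured protein-coding genes on either side (grey), in gene order. Bars start at 0 and error bars are the moderated SE (3 arrays per group); Hey1 at 4.64 stands next to Stmn2 at -5.51.

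Stathmins act on tubulin, and among the tubulins the neuronal beta-tubulin moved most. Tubb3, the isotype used as a marker of neurons, averaged 5.04 ± 0.39 in Pax7-GFP cells and 9.33 ± 0.098 in ES cells (SD, n = 3 each) and fell by 4.30 (SE 0.18, limma adjusted p = 5.41e-07), or stood at -3.69 with signals below the median raised to it. Of the 17 tubulin genes measured, 2 rose, 3 fell and 12 did not pass, 1 of these past the p threshold but short of 2-fold, and their median log2 difference was -0.04. The share called was 29.4%, against 14.5% of all genes. Tuba1c fell by 1.41 (SE 0.11) and Tubb2b, named after its values were seen, by 1.40 (SE 0.099). Tubb6 rose by 1.73 (SE 0.098) and Tubb2a by 1.53 (SE 0.10). For these genes limma gave adjusted p-values from 2.98e-06 to 1.75e-05. With the mean of its probe sets Tubb2b stood at -0.83 and was not called. The abundant Tubb5, named after its values were seen, read 12.88 ± 0.066 in Pax7-GFP cells and 13.05 ± 0.047 in ES cells (SD, n = 3 each; limma adjusted p = 0.149). Tubulin genes share much sequence, so their probe sets may not separate them fully.

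Proteins that bind microtubules were changed in both directions. Of the 22 members measured, 5 rose, 4 fell and 13 did not pass, 11 of these past the p threshold but short of 2-fold, against 14.5% of all genes called, and the median log2 difference was 0.35. Camsap3, which caps microtubule minus ends in epithelial cells, fell by 3.33 (SE 0.11), and Map7, a recruiter of kinesin, fell by 2.13 (SE 0.12). Mapt, the axonal protein tau, averaged 5.63 ± 0.17 in Pax7-GFP cells and 7.20 ± 0.17 in ES cells (SD, n = 3 each), and fell by 1.57 (SE 0.12, limma adjusted p = 1.70e-05). Other genes known from neurons rose in the sorted cells. Dclk1, a doublecortin-like kinase, rose by 2.24 (SE 0.22), Dcx, or doublecortin, by 1.51 (SE 0.15), and Map2, the dendritic protein, by 1.46 (SE 0.15). For these binding proteins limma gave adjusted p-values from 1.88e-07 to 8.02e-05. The other called members, named after their values were seen, were Map6, which fell by 1.32, and the end-binding Mapre3 and the axonal Map1b, which rose by 1.51 and 1.30. With the mean of its probe sets Map6 stood at -0.84 and was not called. With the signal floor Dcx stood at 0.87 and was not called.

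**Figure D3:**
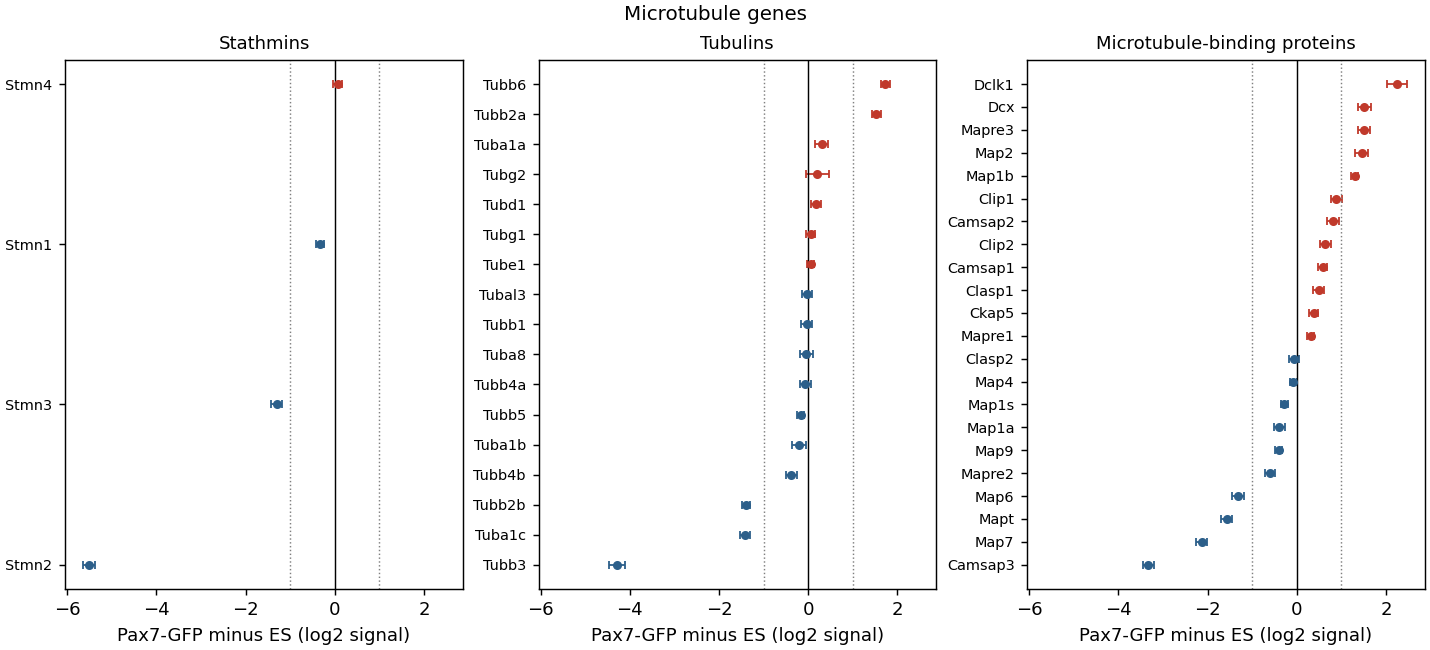
Log2 difference in signal, Pax7-GFP minus ES (horizontal axis), of the stathmins, 17 tubulins and 22 microtubule-binding proteins, each ordered from the most positive at the top. Points are differences of 3 against 3 arrays with the moderated SE, positive ones in red and negative ones in blue, and dotted lines mark a 2-fold difference; Tubb3 at -4.30 lies apart from the other tubulins.

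Of 10 measured microtubule depolymerases and severing enzymes 0 rose and 0 fell (limma; at an unadjusted p under 0.05, 1 was higher and 5 were lower), and 6 were past the adjusted p threshold but short of 2-fold. Since 14.5% of all genes were called, 0 of 10 does not set these genes apart. Without Pax7-GFP replicate 1 the count was 1, the mitotic kinesin Kif18a, at -1.03 (limma adjusted p = 2.77e-05). Among 22 measured kinases, palmitoyl transferases and axon maintenance genes tied to stathmins, 4 rose, 1 fell and 17 did not pass, 9 of these past the p threshold but short of 2-fold, with a median of 0.12 and 22.7% called, against 14.5% of all genes. Nmnat2, an enzyme of NAD synthesis that keeps axons intact, averaged 6.29 ± 0.10 in Pax7-GFP cells and 8.44 ± 0.23 in ES cells (SD, n = 3 each) and fell by 2.14 (SE 0.12, limma adjusted p = 3.44e-06). Camk2d, a calcium-dependent kinase, rose by 1.24 (SE 0.12) and Prkaca, the catalytic subunit of protein kinase A, by 1.20 (SE 0.12), with limma adjusted p = 5.17e-05 and 8.57e-05. The other rises, named after their values were seen, were those of Mapk8, the JNK1 kinase, by 1.11 (SE 0.086), and Prkacb, another catalytic subunit of protein kinase A, by 1.01 (SE 0.12), with limma adjusted p = 1.79e-05 and 0.000259. Prkacb was not called without Pax7-GFP replicate 1 or 3 or without ES replicate 1, at 0.94, 0.96 and 0.94.

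Stmn1 is a gene of dividing cells. Of the 15 genes of division measured, 2 rose, 1 fell and 12 did not pass, 6 of these past the p threshold but short of 2-fold, and the median was -0.13. The share called was 20.0%, against 14.5% of all genes. Mki67, which encodes the Ki-67 antigen, rose by 1.66 (SE 0.088, limma adjusted p = 1.98e-06). Mybl2, a cell cycle transcription factor, fell by 2.95 (SE 0.11, limma adjusted p = 2.65e-07), or stood at -2.25 when its probe sets were averaged. Foxm1, a driver of mitotic genes, rose by 1.02 (SE 0.11, limma adjusted p = 9.73e-05) but was at 0.98 without Pax7-GFP replicate 3 and at 0.92 without ES replicate 1. The mean signal of the list ranged from 10.01 to 10.18 over Pax7-GFP arrays and from 10.18 to 10.26 over ES arrays. The part of division in the level of Stmn1 was not tested.

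Desmin, nestin and lamin A/C rose among the other intermediate filament genes. Of the 11 genes measured, 3 rose, 0 fell and 8 did not pass, 5 of these past the p threshold but short of 2-fold, with a median of 0.58 (limma; at an unadjusted p under 0.05, 7 were higher and 1 was lower). Over all genes 7.34% rose and 7.15% fell, so the absence of called falls among 11 genes does not set the list apart. Des, or desmin, the intermediate filament of muscle, read 11.53 ± 0.099 in Pax7-GFP cells and 7.07 ± 0.12 in ES cells (SD, n = 3 each), and rose by 4.46 (SE 0.096, limma adjusted p = 2.22e-08). Nes, or nestin, a filament of neural and muscle progenitors, rose by 2.19 (SE 0.10, limma adjusted p = 1.15e-06) to 8.80 ± 0.18 in Pax7-GFP cells, against 6.61 ± 0.046 in ES cells (SD, n = 3 each). The remaining called gene, named after its values were seen, was Lmna, which encodes lamin A/C of the nuclear lamina. Lmna rose by 1.78 (SE 0.10, limma adjusted p = 3.09e-06). Vim, or vimentin, was high in both groups, at 12.67 ± 0.044 in Pax7-GFP cells and 12.03 ± 0.068 in ES cells (SD, n = 3 each), a log2 difference of 0.64 (limma adjusted p = 0.000272, under 2-fold). Prph, or peripherin, which assembles with neurofilaments in peripheral neurons, stood at 0.86 (limma adjusted p = 0.00881), and at 1.03 without Pax7-GFP replicate 3, where it was called.

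**Figure D4:**
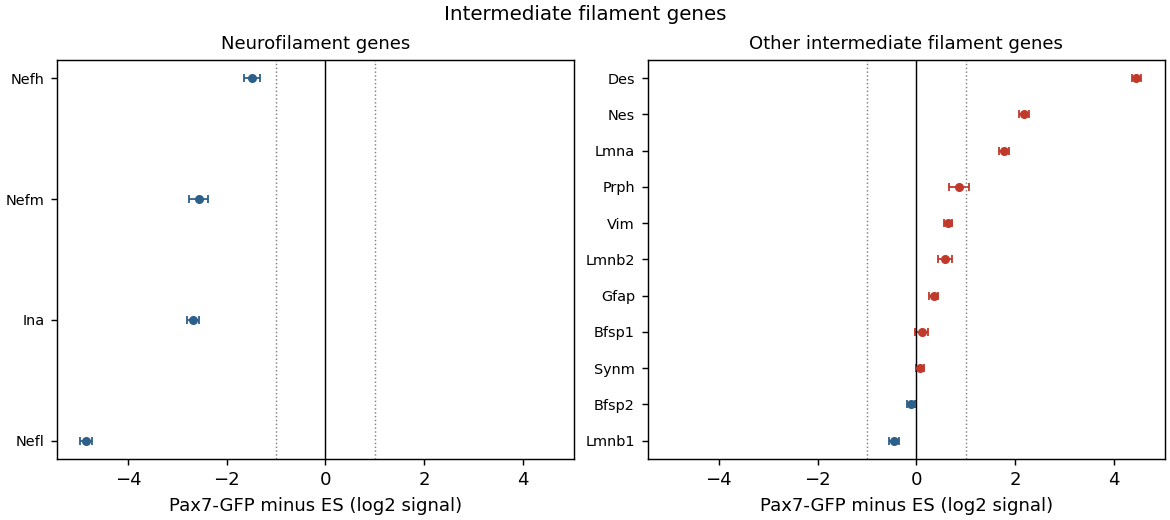
Log2 difference in signal, Pax7-GFP minus ES (horizontal axis), of the 4 neurofilament genes and of 11 other intermediate filament genes. Points are differences of 3 against 3 arrays with the moderated SE, positive ones in red and negative ones in blue, and dotted lines mark a 2-fold difference. The neurofilament genes lie between -4.85 and -1.49, and Des reaches 4.46.

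Genes that link, move or degrade neurofilaments numbered 14 with a measurement, of which 3 rose, 1 fell and 10 did not pass, 5 of these past the p threshold but short of 2-fold, with a median of 0.07. The share called was 28.6%, against 14.5% of all genes. Plec, or plectin, which ties desmin and other filaments to the Z-disc and to junctions, rose by 1.77 (SE 0.20, limma adjusted p = 0.000167), and Klc1, a kinesin light chain, by 1.40 (SE 0.10, limma adjusted p = 1.24e-05). Cdk5r1, the activator of the neurofilament kinase Cdk5, named after its values were seen, rose by 1.40 (SE 0.081, limma adjusted p = 3.44e-06). Dst, or dystonin, a linker of neurofilaments and actin, fell by 1.27 (SE 0.12, limma adjusted p = 5.54e-05).

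Rest is a repressor of neuronal genes in non-neuronal cells, and its own signal was lower in the sorted cells. Rest averaged 7.54 ± 0.29 in Pax7-GFP cells and 8.77 ± 0.075 in ES cells (SD, n = 3 each) and fell by 1.23 (SE 0.14, limma adjusted p = 0.000187). Of 14 measured genes of Rest and its co-repressors 2 rose, 3 fell and 9 did not pass, 6 of these past the p threshold but short of 2-fold, with a median of -0.23 and 35.7% called, against 14.5% of all genes. Rcor2, a co-repressor abundant in ES cells, fell by 2.10 (SE 0.35, limma adjusted p = 0.00146) and its Pax7-GFP arrays spread widely (SD 0.84), and the deacetylase Hdac1 fell by 2.07 (SE 0.12, limma adjusted p = 4.08e-06). The Rcor2 relatives Rcor3 and Rcor1 rose by 1.51 (SE 0.15) and 1.14 (SE 0.10), with limma adjusted p = 8.79e-05 and 3.54e-05. The part of Rest in the levels of the stathmin and neurofilament genes was not tested.

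RNA-binding proteins that act on neuronal transcripts numbered 15 with a measurement, of which 2 rose, 0 fell and 13 did not pass, 6 of these past the p threshold but short of 2-fold, with a median of -0.10 (limma; at an unadjusted p under 0.05, 4 were higher and 6 were lower). The share called, 13.3%, was near the 14.5% of all genes. Ptbp2, a splicing repressor of neurons, rose by 1.50 (SE 0.10, limma adjusted p = 1e-05). Rbfox2, a splicing factor of muscle and brain, rose by 1.13 (SE 0.13, limma adjusted p = 0.000152), or stood at 0.99 without Pax7-GFP replicate 3. Tardbp encodes TDP-43, which in human neurons keeps STMN2 transcripts from being cut short. It averaged 8.88 ± 0.27 in Pax7-GFP cells and 9.49 ± 0.037 in ES cells (SD, n = 3 each), a log2 difference of -0.61 (limma adjusted p = 0.00645, under 2-fold). Whether TDP-43 acts on Stmn2 in these mouse cells was not tested.

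Markers of neurons did not, as a list, share the pattern of Stmn2 and Nefl. Of the 22 markers measured, 2 rose, 3 fell and 17 did not pass, 3 of these past the p threshold but short of 2-fold, with a median of 0.10. The share called was 22.7%, against 14.5% of all genes. Their mean signal ranged from 6.01 to 6.10 over Pax7-GFP arrays and from 6.01 to 6.10 over ES arrays. Uchl1, a ubiquitin hydrolase abundant in neurons, averaged 5.91 ± 0.12 in Pax7-GFP cells and 8.56 ± 0.11 in ES cells (SD, n = 3 each) and fell by 2.66 (SE 0.098, limma adjusted p = 2.81e-07). With the mean of its probe sets Uchl1 stood at -1.28, still called but a smaller fall, so its probe sets differed in size of change. Chga, or chromogranin A of secretory granules, fell by 1.55 (SE 0.14, limma adjusted p = 5.07e-05). Syn1, a synaptic vesicle protein named after its values were seen, fell by 1.16 (SE 0.10, limma adjusted p = 3.79e-05). Ncam1, an adhesion molecule of neurons and of muscle progenitors, went the other way and rose by 3.00 (SE 0.12, limma adjusted p = 3.50e-07) to 10.99 ± 0.085 in Pax7-GFP cells, against 7.99 ± 0.20 in ES cells (SD, n = 3 each). Eno2, or neuron-specific enolase, rose by 1.04 (SE 0.20, limma adjusted p = 0.00292), but stood at 0.80 without Pax7-GFP replicate 1, where it was not called.

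Of the 22 markers of neurons, 14 had both group means above the median of all values and 8 had both below it. Vamp2, a vesicle fusion protein named after its values were seen, read 8.50, 8.51 and 9.02 in Pax7-GFP arrays, against 7.91, 8.08 and 8.01 in ES arrays (limma adjusted p = 0.00562, under 2-fold). Gap43, a growth cone protein, averaged 4.81 ± 0.067 in Pax7-GFP cells and 4.58 ± 0.084 in ES cells (SD, n = 3 each; limma adjusted p = 0.0659). Snap25 and Syt1, synaptic vesicle fusion proteins named after their values were seen, averaged 5.37 ± 0.13 and 5.77 ± 0.14 in Pax7-GFP cells, and 5.22 ± 0.073 and 5.67 ± 0.094 in ES cells (SD, n = 3 each; limma adjusted p = 0.244 and 0.479).

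**Figure D5:**
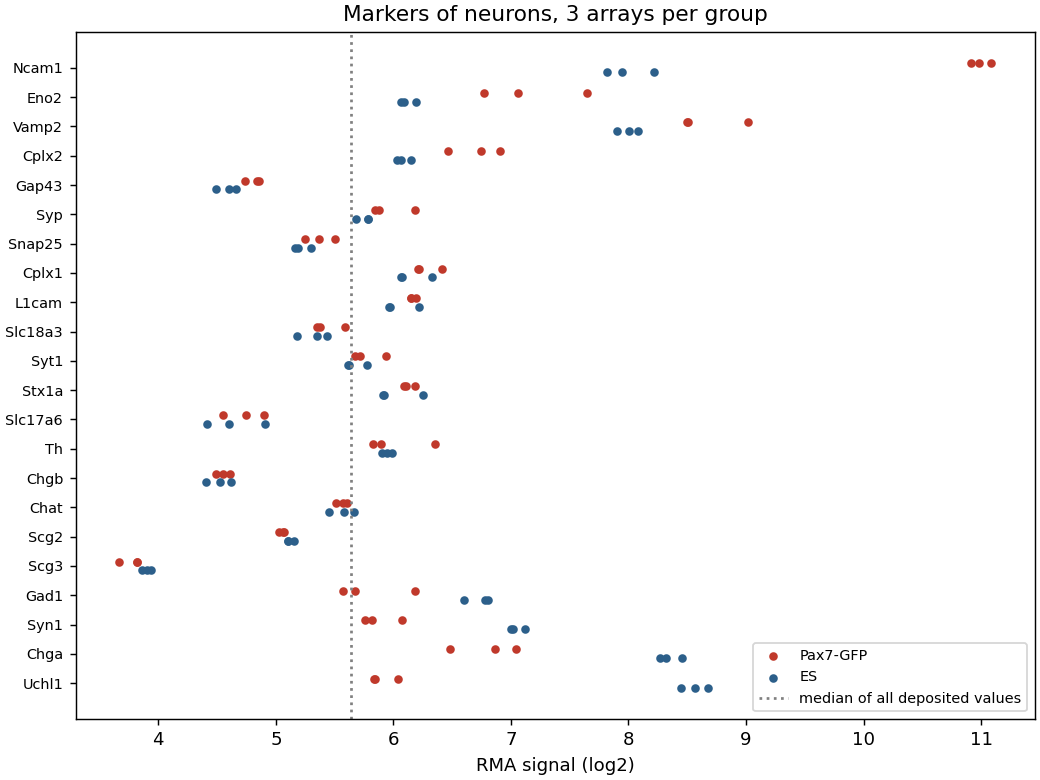
Log2 RMA signal (horizontal axis) of 22 markers of neurons in Pax7-GFP arrays (red, upper row of each gene) and ES arrays (blue, lower row), ordered from the most positive difference at the top. Each point is 1 of 3 arrays and the dotted line is the median of all deposited values, 5.64. Uchl1 and Chga are higher in ES arrays, Ncam1 is higher in Pax7-GFP arrays, and Gap43 lies left of the line in both.

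Transcription factors of neural progenitors and neurons numbered 17 with a measurement, of which 1 rose, 2 fell and 14 did not pass, 3 of these past the p threshold but short of 2-fold, with a median of -0.05. The share called, 17.6%, was near the 14.5% of all genes. Olig2, a factor of motor neuron and oligodendrocyte progenitors, averaged 5.05 ± 0.039 in Pax7-GFP cells and 7.47 ± 0.14 in ES cells (SD, n = 3 each) and fell by 2.42 (SE 0.094, limma adjusted p = 3.56e-07), or stood at -1.83 with the signal floor. Sox1, an early neural factor, fell by 1.10 (SE 0.13, limma adjusted p = 0.000231), and with the signal floor it stood at -0.44 and was not called. Isl1, a factor of motor neurons and heart progenitors, rose by 1.64 (SE 0.15, limma adjusted p = 4.97e-05). The mean signal of the list ranged from 5.38 to 5.52 over Pax7-GFP arrays and from 5.63 to 5.71 over ES arrays.

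Glial and neural crest markers numbered 10 with a measurement, of which 1 rose, 2 fell and 7 did not pass, 3 of these past the p threshold but short of 2-fold, with a median of -0.001. The share called was 30.0%, against 14.5% of all genes. Tfap2a, a neural crest and epidermal factor, fell by 2.97 (SE 0.089, limma adjusted p = 8.89e-08), or stood at -2.28 with the signal floor, and Foxd3, a factor of both neural crest and ES cells, fell by 1.69 (SE 0.15, limma adjusted p = 4.55e-05). Fabp7, a lipid-binding protein of radial glia, rose by 1.78 (SE 0.32, limma adjusted p = 0.00200). The mean signal of this list ranged from 6.33 to 6.41 over Pax7-GFP arrays and from 6.64 to 6.69 over ES arrays. The part of neural or glial cells in the signals of the stathmin and neurofilament genes was not tested.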

How the data were processed

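RNA of 3 Pax7-GFP and 3 ES samples was measured on single-colour arrays. Targets were amplified through a pair of rounds and labelled with biotin, per the labels' protocols. The deposited values are RMA signals on the log2 scale, made by the authors in R 2.12.1, per the submitters' processing notes; its options, and any genome build, are not stated there. Of 41345 probe sets, 23521 carried 1 gene symbol in GEO's platform annotation, 1814 several (not used, 1 of them listing Nefm) and 16010 none. The brightest probe set by mean stood for each of 22180 genes.

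Groups were compared with limma 3.58.1 in R 4.3.3 (lmFit, eBayes, two-sided), with Benjamini-Hochberg adjustment over all genes; a call needed at least a 2-fold difference (1 on the log2 scale) with an adjusted p below 0.05. Differences are signed as Pax7-GFP minus ES, and SE is the moderated one. The number of arrays limits precision, and p-values cover only the spread of these samples, since separate cultures are not described. On simulated data over 22180 genes for this comparison, 94 of 100 genes shifted by 1.5 and 100 of 100 shifted by 3 were called, and 1 of 21980 unshifted. The simulation gave each gene independent normal noise of the same SD in both groups, unlike the wider Pax7-GFP spread of several members. Its rates therefore need not hold for these arrays. The members, gene lists and tests were chosen with earlier results of these data known. Named genes are the members, 15 anchors, the 2 largest called rises and falls of each list, the 3 nearest profiles to Stmn2 and Nefl, and the 2 neighbours on either side of 3 loci; others were chosen after their values were seen. Same-numbered samples of the groups correlated at -0.11, -0.22 and 0.01 in their deviations from the group means, so the numbers were not used to pair them. Alternatives changed the scaling, the probe set rule, a replicate block, array weights, the variance prior, a signal floor at the median, a filter on dim genes, and the arrays included.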

Additional observations from a re-analysis of the deposited data

How the results depend on the processing

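Under 14 alternatives, the count of genes called stayed between 2804 and 3309, against 3212 as reported, and was 3213 with the replicate block; the block changed no call of a named gene. Stmn2 stayed between -5.65 and -5.27. Nefl stayed between -4.96 and -4.75 without single arrays, and stood at -3.67 with the signal floor, which raises its Pax7-GFP signals by construction. The count of called microtubule depolymerases and severing enzymes ranged from 0 to 1 without single arrays. Of 80 genes outside the 2 families looked at singly, 70 kept their side of the call under every alternative in which they were tested. Vamp2 and Kif18a, also named above, were not among these 80. Eno2, Foxm1, Prkacb and Rbfox2, close to the 2-fold minimum, lost the call without single arrays. Foxm1 and Prkacb also lost it with arrays centred on their medians, at 0.994 and 0.986, and Eno2 with array weights, at 0.968. No scanner files were used, so background correction was not varied, and signals near background are limited by it.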
